A study of Mus musculus with 8 samples.

Results

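A set of 28 genes of cholesterol synthesis and sterol regulation was taken from the gene table by symbol, as a list of pathway members. It was chosen with earlier results of these data known. All 28 were found among the 18605 genes of the table. The mRNA was measured by RNA-seq in 4 groups of 2 libraries each. The cells were C3H10T1/2, a mesenchymal stem cell line from a mouse embryo of the C3H strain. NC cells were the non-target control and KD-Nap1l2 cells carried an shRNA against Nap1l2, delivered by lentivirus in the study's methods, a histone chaperone of the NAP1 family. Both were collected before osteogenic induction (day 0) and after 7 days in osteogenic medium, which contains dexamethasone, ascorbic acid and β-glycerol phosphate (NC-7d and KD-Nap1l2-7d). What the control cells carried is not given in the sources used here. Whether each shRNA line was a clone or a pool, and whether the replicates were separate cultures, is not given in the sources used here, so that p-values measure the spread between these libraries, which may be technical.

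Cells make cholesterol from acetyl-CoA, first through the mevalonate steps to isoprenoid units, and then through squalene and the sterol rings. When sterol is scarce in the endoplasmic reticulum, SCAP escorts the transcription factor SREBP-2 (Srebf2) to the Golgi for cleavage, and the released factor switches on the enzyme genes together with uptake genes. INSIG proteins hold SCAP back when sterol is abundant, while oxysterols activate the LXR nuclear receptors, which switch on genes of cholesterol efflux. The members cover the mevalonate and isoprenoid steps (8 genes), the squalene and sterol ring steps (11), SREBP regulators (3), sterol transport (2) and the LXR arm with efflux (4).

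Because SREBP-2 acts at promoters, the promoter sequences of these genes were examined for known kinds of motif. A RefSeq promoter on GRCm38.p6, from 250 bases before to 50 bases after the start site, was given for 22 of the 28 genes. The 6 genes without one were not examined for any motif. They are among Fdps, Fdft1, Sqle, Stard4, Npc1, Nr1h2 and Abcg1, the only members with no match to any motif below. On either strand, TCACNCCA, the core of a classical sterol response element, was found in the promoters of 3 of these 22 genes (Hmgcs1, Srebf2 and Msmo1) and of 4.39% of all genes tested that had a promoter. The longer TCACNCCAC, which contains the shorter form, was found in Hmgcs1 alone and in 1.30% of the genes tested. CCAAT, the box bound by NF-Y, occurred in 18 of the 22 genes, against 43.8% of the genes tested. GGGCGG, a GC box bound by SP1, occurred in 19 of 22, against 66.1%, and the E-box CACGTG in 6 of 22, against 11.3%. Over all promoters of the table, the shares were 4.36% for TCACNCCA, 1.24% for TCACNCCAC, 37.4% for CCAAT, 35.7% for GGGCGG and 7.15% for CACGTG. A match describes these letters and is not a measured binding site. The promoters of the 3 genes that hold TCACNCCA, and that of Cyp51, an enzyme gene that fell during induction in KD-Nap1l2 cells and holds no TCACNCCA in this window, are shown 5′ to 3′ on the strand of the gene. Capitals mark TCACNCCA and CCAAT, which reads ATTGG on the other strand.
Hmgcs1 (chr13:119690101-119690400, plus strand): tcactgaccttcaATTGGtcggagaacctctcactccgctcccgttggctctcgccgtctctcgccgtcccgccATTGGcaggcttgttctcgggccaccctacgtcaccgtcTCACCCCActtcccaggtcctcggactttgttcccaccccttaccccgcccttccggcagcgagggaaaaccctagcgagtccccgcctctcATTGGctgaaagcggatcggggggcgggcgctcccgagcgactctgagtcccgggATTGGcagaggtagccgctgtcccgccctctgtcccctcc
Srebf2 (chr15:82147019-82147318, plus strand): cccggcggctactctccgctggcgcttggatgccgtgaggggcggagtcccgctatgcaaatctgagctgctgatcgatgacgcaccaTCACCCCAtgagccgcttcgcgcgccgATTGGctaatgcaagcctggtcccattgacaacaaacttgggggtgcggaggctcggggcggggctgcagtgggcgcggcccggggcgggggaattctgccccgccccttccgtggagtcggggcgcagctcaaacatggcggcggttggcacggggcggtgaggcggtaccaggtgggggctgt
Msmo1 (chr8:64733529-64733828, minus strand): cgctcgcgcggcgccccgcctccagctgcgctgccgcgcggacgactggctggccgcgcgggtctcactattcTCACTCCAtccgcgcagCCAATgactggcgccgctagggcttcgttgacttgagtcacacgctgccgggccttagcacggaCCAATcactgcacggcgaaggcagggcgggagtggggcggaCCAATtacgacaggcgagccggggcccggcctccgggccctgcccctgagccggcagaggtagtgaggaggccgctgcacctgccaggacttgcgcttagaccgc
Cyp51 (chr5:4104648-4104947, minus strand): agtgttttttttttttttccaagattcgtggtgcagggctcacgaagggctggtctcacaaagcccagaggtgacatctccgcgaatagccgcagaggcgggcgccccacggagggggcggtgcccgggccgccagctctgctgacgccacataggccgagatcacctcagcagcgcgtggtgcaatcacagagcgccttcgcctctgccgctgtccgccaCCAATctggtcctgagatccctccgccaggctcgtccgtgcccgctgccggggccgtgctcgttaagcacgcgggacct
The TCACNCCA match began 137 bases before the start site in Hmgcs1, 162 before it in Srebf2 and 177 before it in Msmo1. In Srebf2 the nearest CCAAT box lay on the other strand, 135 bases before the start, and in Msmo1 on the same strand, 160 bases before it.

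The libraries held 17420284 to 19427359 estimated counts, and all 28 members passed the filter on low counts that kept 13470 genes. Mesenchymal markers such as Col1a1, Col1a2 and Vim were abundant in all 8 libraries, but Nt5e was close to 0. The 11 mesenchymal markers summed to 17229 to 23816 CPM before and 10846 to 14503 CPM after induction, without overlap. The sum was thus lower at day 7, as were most of the synthesis enzymes described below. Col1a1, Col1a2, Vim and Twist1 were each lower without overlap, while Eng was higher (58.7 to 69.1 CPM before, 72.2 to 89.3 CPM after). The ranges of the other markers overlapped. Of 6 osteoblast markers, Sp7, Alpl and Ibsp stayed under 1 CPM (counts scaled by TMM to a common library size) also after 7 days and Bglap reached at most 1.26 CPM, whereas Dmp1 was 7.41 to 30.5 CPM before and 3.94 to 9.03 CPM after induction and Phex was 2.57 to 19.8 CPM before and 2.15 to 21.5 CPM after. The summed osteoblast markers ran from 10.3 to 48.8 CPM before and from 7.15 to 31.1 CPM after induction. Of 6 adipocyte markers, 4 were under 1 CPM in every library (Adipoq, Plin1, Cidec and Lep), whereas Fabp4 was 4.66 to 15.9 CPM before and 82.6 to 111 CPM after induction and Pparg was 33.6 to 40.8 CPM before and 63.6 to 80.6 CPM after. The summed adipocyte markers ran from 39.6 to 56.7 CPM before and from 146 to 191 CPM after induction, and the part of these 3 marker lists in the results below was not tested. Nap1l2 itself had 3 and 3 estimated counts in NC, 2 and 7 in KD-Nap1l2, 15 and 5 in NC-7d and 7 and 13 in KD-Nap1l2-7d. These counts did not separate the knockdown libraries from the controls, and they are too few to judge the knockdown. The study's methods state that knockdown efficiency was assessed by western blot and qPCR. Whether the sequenced cultures were among those assessed is not given in the sources used here, and the groups are taken from their labels.

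The members differed widely in level. Per gene length, in deposited FPKM averaged over the 8 libraries, Msmo1 was the highest at 59.6 FPKM, followed by Hmgcs1 (39.8 FPKM), the LXR gene Nr1h2 (39.4 FPKM), Mylip (39.1 FPKM) and Srebf2 (37.0 FPKM). The lowest were Tm7sf2 (3.41 FPKM), Abcg1 (3.20 FPKM) and Idi1 (3.08 FPKM). The deposited transcript table gave 1 transcript for 12 members and several for 16. For Srebf2, NM_033218.1 held 67.2 to 77.3% of the FPKM in every library, and for Stard4, XM_006525694.3 held 72.6 to 82.4%. For Npc1, XM_017317849.1 held 0 to 37.2%, both extremes being NC-7d libraries.

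To ask whether the Nap1l2 shRNA altered sterol genes before induction, KD-Nap1l2 was compared with NC (edgeR quasi-likelihood test, Benjamini-Hochberg adjustment over all 13470 genes, calls at an adjusted p under 0.05, also in the contrasts that follow). None of the 28 members was called, where 0.0817% of all genes tested were. An unadjusted p under 0.05 was reached by 0 of 28 members, against 13.7% of all genes tested. DESeq2 called 453 genes (3.44%) and 0 members. The median log2 fold change of the members was 0.07, against 0.01 over all genes tested. Libraries of the groups did not overlap for 2 members on the higher side (22% of all genes tested) and 4 on the lower side (21.2% of all).
Abca1, the transporter that passes cholesterol to apolipoprotein A-I, had the largest difference of the 28. It was at 92.6 and 71.6 CPM in NC and at 190 and 103 CPM in KD-Nap1l2 (log2 fold change 0.84, SE 0.43, edgeR adjusted p = 0.44). These groups did not overlap, but the KD-Nap1l2 libraries differed more from each other than the lower of them did from NC. Mylip, the ubiquitin ligase that sends lipoprotein receptors to degradation, was at 143 and 131 CPM in NC and at 121 and 64.5 CPM in KD-Nap1l2 (log2 fold change -0.57, SE 0.26, edgeR adjusted p = 0.394). Without KD-Nap1l2 replicate 1, the difference in Mylip was -1.09, and without KD-Nap1l2 replicate 2 it was -0.19. A fit without 1 library assumes that the lone library of that group varies like the others. Acat2, the cytosolic thiolase at the entry to the pathway, was at 36.9 and 44.0 CPM in NC and 55.0 and 51.9 CPM in KD-Nap1l2 (log2 fold change 0.40, SE 0.26, edgeR adjusted p = 0.544). The other members outside these lay between -0.39 (Insig1) and 0.34 (Lss) on the log2 scale.

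After 7 days of induction, KD-Nap1l2-7d was compared with NC-7d. No member was called, nor was any of the 13470 genes tested (0%). An unadjusted p under 0.05 was reached by 1057 genes and by 0 members. DESeq2 called 78 genes and 0 members. The median log2 fold change of the members was -0.14, against -0.0056 over all genes. Groups did not overlap for 2 members on the higher side (21% of all genes tested) and 3 on the lower side (21% of all).
Sqle, squalene epoxidase, which performs the first oxygenation of the pathway, was at 51.8 and 111 CPM in NC-7d and at 43.1 and 60.7 CPM in KD-Nap1l2-7d (log2 fold change -0.65, SE 0.43, edgeR adjusted p = 0.787). The upper of the KD-Nap1l2-7d libraries lay above the lower NC-7d library, and without NC-7d replicate 2 the difference was 0.0022. Dhcr7, the reductase that turns 7-dehydrocholesterol into cholesterol, was at 13.8 and 24.5 CPM in NC-7d and 11.2 and 14.8 CPM in KD-Nap1l2-7d (log2 fold change -0.56, SE 0.29, edgeR adjusted p = 0.697). Pmvk, phosphomevalonate kinase, was at 11.8 and 16.1 CPM against 7.64 and 11.4 CPM (log2 fold change -0.55, SE 0.28, edgeR adjusted p = 0.693). Of these 3 genes only Pmvk had groups that did not overlap. The members' median depended on the NC-7d libraries, and it was -0.40 when replicate 1 of NC-7d was left out and 0.09 when replicate 2 of NC-7d was left out.

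**Figure D1:**
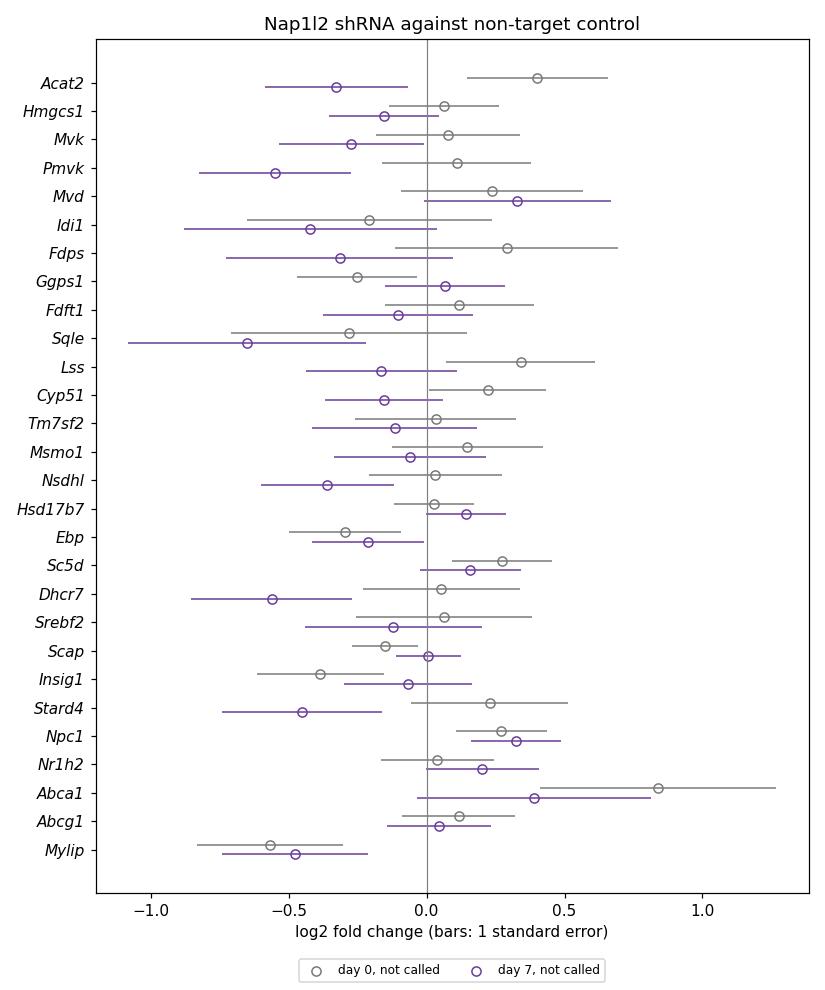
Log2 fold change of each of the 28 genes (rows) for the Nap1l2 shRNA against the non-target control at day 0 (grey) and day 7 (purple), from edgeR on 2 libraries per group, with bars of 1 standard error. All symbols are open because no member was called at either time, and the largest difference at day 0 is Abca1 at 0.84 and at day 7 Sqle at -0.65.

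Induction was then examined in each line, as day 7 against day 0. No library came from cells kept 7 days without osteogenic medium. The effect of the medium and that of 7 days in culture therefore cannot be told apart. In NC cells, 2 members rose (4.83% of all genes tested rose) and 0 fell (3.38% of all fell), with 7 of 28 at an unadjusted p under 0.05 (24.5% of all genes tested). In KD-Nap1l2 cells, 2 members rose (6.84% of all) and 3 fell (7.36% of all), with 15 of 28 at an unadjusted p under 0.05 (31.4% of all genes tested). The genes that rose in both lines were Npc1 and Abcg1, and those that fell in KD-Nap1l2 cells were Hmgcs1, Cyp51 and Stard4. The contrasts within NC and within KD-Nap1l2 share no library with each other, but each shares its libraries with the knockdown contrasts above. In bulk RNA, fewer cells of a kind and less RNA per cell cannot be told apart.

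**Figure D2:**
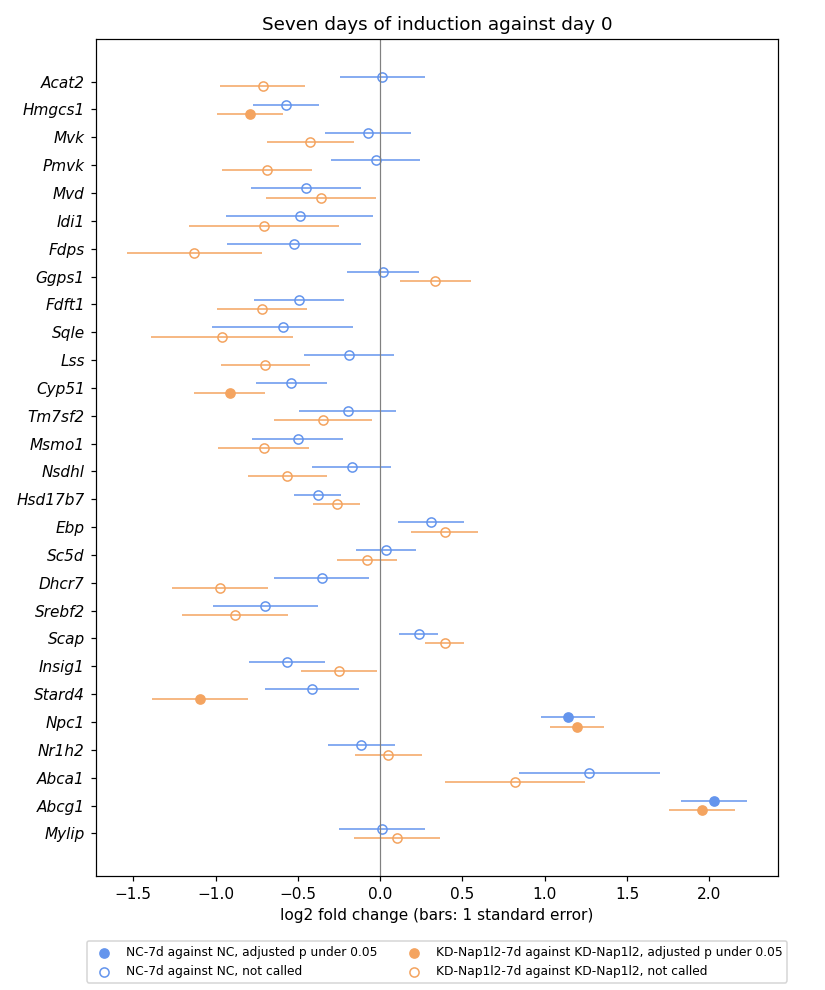
Log2 fold change of each of the 28 genes (rows) after 7 days of induction in NC (blue) and KD-Nap1l2 (orange) cells, from edgeR on 2 libraries per group, with bars of 1 standard error and filled symbols for an adjusted p under 0.05. Filled symbols are Npc1 and Abcg1 in both lines and, in KD-Nap1l2 cells, Hmgcs1, Cyp51 and Stard4. The enzymes between Acat2 and Dhcr7 sit mostly left of 0, more so in KD-Nap1l2 cells, although no member was called for a difference between the lines.

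Of the 8 genes of the mevalonate and isoprenoid steps, 1 fell in KD-Nap1l2 cells and 0 were called in NC cells. Hmgcs1, the cytosolic synthase that makes HMG-CoA (chr13:119690351-119708260, plus strand, GRCm38), was at 167 and 170 CPM in NC, 155 and 197 CPM in KD-Nap1l2, 91.3 and 136 CPM in NC-7d and 99.0 and 105 CPM in KD-Nap1l2-7d. Both day 7 libraries were lower than both day 0 libraries in each line. The log2 fold change was -0.79 in KD-Nap1l2 cells (1.73-fold lower, SE 0.20, edgeR adjusted p = 0.0383) and -0.57 in NC cells (SE 0.20, edgeR adjusted p = 0.129). The call in KD-Nap1l2 cells was lost without KD-Nap1l2 replicate 2 (-0.61, adjusted p = 0.139), without KD-Nap1l2-7d replicate 1 (-0.75, adjusted p = 0.211) and without KD-Nap1l2-7d replicate 2 (-0.84, adjusted p = 0.167), all by edgeR. An antisense gene covers 12.1% of the exon bases of Hmgcs1, and whether counting used strand is not given in the sources used here. Its transcripts XM_006517578.1 and NM_001291439.1 held 49.2 to 79.3% and 18.5 to 43.8% of its FPKM.
Fdps, which makes farnesyl diphosphate, had the largest negative value of all members. It was at 50.2 and 70.7 CPM in KD-Nap1l2 and 19.4 and 35.9 CPM in KD-Nap1l2-7d (log2 fold change -1.13, SE 0.41, edgeR adjusted p = 0.106), with each pair of libraries far apart. It was not called in this fit, while DESeq2 called it (adjusted p = 0.019). In NC cells Fdps was at 38.3 and 60.5 CPM before and 22.7 and 46.0 CPM after induction, so that the groups overlapped. The annotated gene Gm43738 on the same strand shares 26.7% of the exon bases of Fdps, and whether reads were divided between them was not tested, although Fdps had whole estimated counts in every library. The other genes of these steps were not called in either line, and their log2 fold changes in KD-Nap1l2 cells were -0.71 for Acat2, -0.70 for the isomerase Idi1, -0.69 for Pmvk, -0.42 for mevalonate kinase Mvk, -0.36 for the decarboxylase Mvd and 0.34 for Ggps1, which makes geranylgeranyl diphosphate and leads away from sterols. Ggps1 was the only enzyme of this group with a positive value in KD-Nap1l2 cells, and its libraries overlapped (37.3 and 23.4 CPM before, 39.8 and 36.7 CPM after).

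Of the 11 genes of the squalene and sterol ring steps, 1 fell in KD-Nap1l2 cells and 0 were called in NC cells. Cyp51, the lanosterol demethylase (chr5:4080674-4104697, minus strand, GRCm38), was at 67.8 and 95.6 CPM in NC, 85.1 and 105 CPM in KD-Nap1l2, 47.4 and 65.0 CPM in NC-7d and 49.5 and 51.5 CPM in KD-Nap1l2-7d. Again both day 7 libraries were below both day 0 libraries in each line. The log2 fold change was -0.92 in KD-Nap1l2 cells (1.89-fold lower, SE 0.21, edgeR adjusted p = 0.0295) and -0.54 in NC cells (SE 0.21, edgeR adjusted p = 0.171). The call was lost without KD-Nap1l2 replicate 2 (-0.75, adjusted p = 0.107), without KD-Nap1l2-7d replicate 1 (-0.89, adjusted p = 0.18) and without KD-Nap1l2-7d replicate 2 (-0.95, adjusted p = 0.154), all by edgeR.
Dhcr7 and Sqle had the largest negative values of these 11 genes in KD-Nap1l2 cells, with wider errors than Cyp51. Dhcr7 was at 23.9 and 27.0 CPM before and 11.2 and 14.8 CPM after induction (log2 fold change -0.97, SE 0.29, edgeR adjusted p = 0.0628), and DESeq2 called it (adjusted p = 0.0153). Sqle was at 75.5 and 127 CPM before and 43.1 and 60.7 CPM after (log2 fold change -0.96, SE 0.43, edgeR adjusted p = 0.174). In NC cells Sqle was at 86.6 and 159 CPM before and 51.8 and 111 CPM after (log2 fold change -0.59, SE 0.43, edgeR adjusted p = 0.441), with overlapping groups.
Msmo1, the sterol C4 methyl oxidase, Fdft1, squalene synthase, and Lss, lanosterol synthase, had log2 fold changes of -0.71, -0.72 and -0.70 in KD-Nap1l2 cells and of -0.50, -0.49 and -0.19 in NC cells, none of them called in this fit. Nsdhl, a sterol dehydrogenase, gave -0.56 and -0.17, Hsd17b7, a sterol ketone reductase, -0.26 and -0.38, and Tm7sf2, a sterol C14 reductase, -0.35 and -0.20, in KD-Nap1l2 and NC cells respectively. Sc5d, the lathosterol desaturase, was close to 0 in both lines (-0.08 and 0.03). Ebp, the sterol isomerase, stood on the other side, with 29.2 and 31.6 CPM in KD-Nap1l2 and 36.5 and 43.3 CPM in KD-Nap1l2-7d (log2 fold change 0.39, SE 0.20, edgeR adjusted p = 0.228). Ctsb on the other strand shares 18.3% of the exon bases of Fdft1, whose estimated counts were not all whole. Vps51 on the same strand shares 12.1% of those of Tm7sf2, and 5830462I19Rik on the other strand 13.2% of those of the regulator Scap. How reads were divided there was not tested.

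Considered together, the 19 enzymes had a median log2 fold change of -0.36 in NC cells and -0.70 in KD-Nap1l2 cells, where the median over all genes tested was -0.0035 and -0.0070. In NC cells, both day 7 libraries were below both day 0 libraries for 5 of the 19 enzymes, and for 9 of all 28 members (28.4% of all genes tested), whereas 4 of 28 members were above (29.4% of all). In KD-Nap1l2 cells, 16 of the 19 enzymes and 18 of all 28 members were lower without overlap (30.6% of all genes tested), and 5 of 28 members were higher (30.8% of all). The enzymes' summed level was 840 and 1085 CPM in NC, 880 and 1145 CPM in KD-Nap1l2, 602 and 898 CPM in NC-7d and 595 and 715 CPM in KD-Nap1l2-7d. The upper NC-7d library thus overlapped the NC range, but both KD-Nap1l2-7d libraries lay below all 4 day 0 libraries. The summed level per length was 327 and 442 FPKM in NC, 371 and 440 FPKM in KD-Nap1l2, 236 and 381 FPKM in NC-7d and 235 and 290 FPKM in KD-Nap1l2-7d, where again both KD-Nap1l2-7d libraries lay below all 4 day 0 libraries.

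The difference between the lines in their response to induction was tested directly as an interaction. No member was called, nor was any of the 13470 genes tested (0%), and 0 members against 948 genes overall had an unadjusted p under 0.05. DESeq2 called 100 genes and 0 members. The median difference over the members was -0.21 on the log2 scale (KD-Nap1l2 response minus NC response), against -0.02 over all genes. The largest differences were Acat2 (-0.73, SE 0.36, edgeR adjusted p = 0.722), Stard4 (-0.68, SE 0.41, edgeR adjusted p = 0.773) and Pmvk (-0.66, SE 0.39, edgeR adjusted p = 0.765). The calls of Hmgcs1, Cyp51 and Stard4 in KD-Nap1l2 cells alone therefore do not show that the lines differed. Leaving out replicate 1 of NC-7d gave a median difference of -0.47, and leaving out replicate 2 of NC-7d gave 0.06.

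Among the 3 SREBP regulators none was called in any contrast by edgeR on all 8 libraries. DESeq2 called a fall of Srebf2 in KD-Nap1l2 cells. The fit of only the libraries compared called falls of Srebf2 in KD-Nap1l2 cells and of Insig1 in NC cells. Calls of all 3 regulators also changed in fits that left out a single library. Srebf2 was at 202 and 242 CPM in NC, 189 and 275 CPM in KD-Nap1l2, 89.3 and 184 CPM in NC-7d and 128 and 124 CPM in KD-Nap1l2-7d. Its day 7 libraries were all below the day 0 libraries of the same line. The log2 fold change was -0.70 in NC cells (SE 0.32, edgeR adjusted p = 0.23) and -0.88 in KD-Nap1l2 cells (SE 0.32, edgeR adjusted p = 0.107). Without NC-7d replicate 2, the value in NC cells was -1.31 (edgeR adjusted p = 0.0286). Insig1, itself a target of SREBP, was at 74.8 and 76.6 CPM in NC and 51.4 and 50.7 CPM in NC-7d (log2 fold change -0.57, SE 0.23, edgeR adjusted p = 0.181). The KD-Nap1l2 libraries of Insig1 lay far apart, at 41.8 and 74.1 CPM, around 49.6 and 47.8 CPM in KD-Nap1l2-7d. Scap was higher without overlap at day 7 in both lines, at 72.3 and 76.1 CPM in NC against 86.6 and 88.0 CPM in NC-7d, and at 72.0 and 61.6 CPM in KD-Nap1l2 against 88.7 and 86.7 CPM in KD-Nap1l2-7d. Its log2 fold changes of 0.23 (edgeR adjusted p = 0.271) and 0.39 (edgeR adjusted p = 0.065) were not called.

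Both genes of sterol transport were called, in opposite directions. Npc1, the lysosomal membrane protein that releases cholesterol taken up by the cell (chr18:12189694-12236506, minus strand, GRCm38), was at 51.0 and 64.4 CPM in NC and 136 and 118 CPM in NC-7d. In KD-Nap1l2 cells it was at 62.2 and 76.9 CPM before and 163 and 156 CPM after induction. All 4 day 7 libraries were above all 4 day 0 libraries. The rise was 2.21-fold in NC cells (log2 fold change 1.14, SE 0.17, edgeR adjusted p = 0.0084) and 2.29-fold in KD-Nap1l2 cells (log2 fold change 1.20, SE 0.17, edgeR adjusted p = 0.00493). The call in NC cells was lost without NC replicate 1 (0.98, edgeR adjusted p = 0.0857).
Stard4, a cytosolic carrier of sterol between membranes (chr18:33199138-33213862, minus strand, GRCm38), was at 34.9 and 42.1 CPM in NC, 33.1 and 57.1 CPM in KD-Nap1l2, 23.1 and 34.7 CPM in NC-7d and 19.1 and 23.2 CPM in KD-Nap1l2-7d. The day 7 libraries were below the day 0 libraries in each line, narrowly so in NC cells. It fell 2.13-fold in KD-Nap1l2 cells (log2 fold change -1.09, SE 0.29, edgeR adjusted p = 0.0435), while in NC cells the value was -0.41 (SE 0.29, edgeR adjusted p = 0.418). The call was lost without KD-Nap1l2 replicate 2 (-0.65, adjusted p = 0.172), without KD-Nap1l2-7d replicate 1 (-0.96, adjusted p = 0.239) and without KD-Nap1l2-7d replicate 2 (-1.25, adjusted p = 0.155), all by edgeR, and also with only the libraries compared (adjusted p = 0.0533) and with limma on log2(FPKM + 1) (adjusted p = 0.0566).

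In the LXR arm, Abcg1 rose in both lines. Abcg1, a transporter that moves cholesterol to lipoprotein particles (chr17:31057694-31117984, plus strand, GRCm38), was at 5.99 and 8.50 CPM in NC, 7.35 and 8.38 CPM in KD-Nap1l2, 31.9 and 27.3 CPM in NC-7d and 28.9 and 32.1 CPM in KD-Nap1l2-7d. The day 7 libraries stood well apart from the day 0 libraries, and at each time the lines differed by less than the spread between libraries. The rise was 4.08-fold in NC cells (log2 fold change 2.03, SE 0.20, edgeR adjusted p = 0.00204) and 3.88-fold in KD-Nap1l2 cells (log2 fold change 1.96, SE 0.20, edgeR adjusted p = 0.00167), and it was called under all 12 alternatives in each line.
Abca1, which is also regulated by LXR, was at 92.6 and 71.6 CPM in NC and 284 and 113 CPM in NC-7d (log2 fold change 1.27, SE 0.43, edgeR adjusted p = 0.119). The NC-7d libraries differed by more than any other pair of this gene. DESeq2 called the rise in NC cells (adjusted p = 0.00731), as did edgeR without NC-7d replicate 2 (1.79, adjusted p = 0.0236). In KD-Nap1l2 cells Abca1 was at 190 and 103 CPM before and 275 and 244 CPM after induction (log2 fold change 0.82, SE 0.43, edgeR adjusted p = 0.228). Nr1h2, which encodes LXRβ, had log2 fold changes of -0.11 in NC and 0.05 in KD-Nap1l2 cells, and Mylip had 0.01 and 0.10, neither called.

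**Figure D3:**
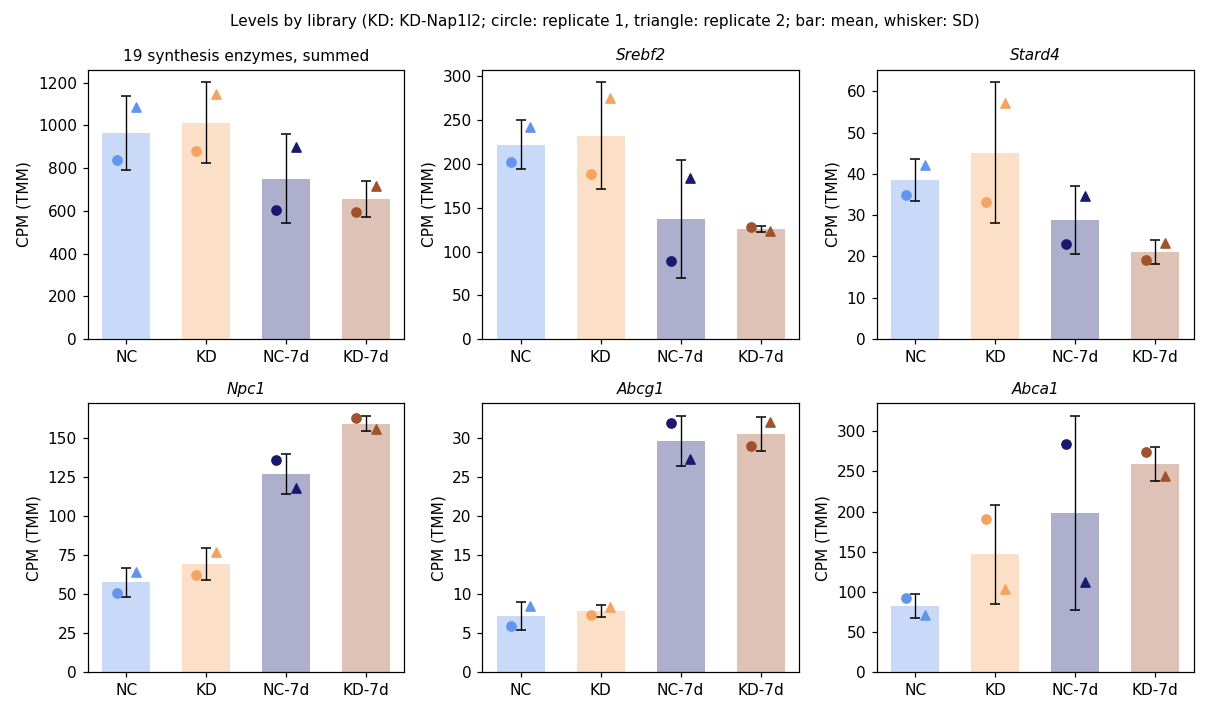
Level in CPM after TMM scaling of the 19 enzymes summed and of Srebf2, Stard4, Npc1, Abcg1 and Abca1 in each library, with bars for the mean and whiskers for the SD of 2 libraries. Npc1 and Abcg1 are separated between day 0 and day 7 in both lines, whereas the NC-7d libraries of the enzymes (602 and 898 CPM), Srebf2 (89.3 and 184 CPM) and Abca1 (284 and 113 CPM) lie far apart.

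The 2 libraries of a group differed for the sterol genes in a common direction. Replicate 2 was above replicate 1 for 24 of 28 members in NC, 21 in KD-Nap1l2, 22 in NC-7d and 19 in KD-Nap1l2-7d, while of all genes tested 48.4%, 47.5%, 48.1% and 50.1% were higher in replicate 2. The median ratio of replicate 2 to replicate 1 over the members was 1.25, 1.22, 1.43 and 1.15. In 12 of the 19 enzymes replicate 2 was higher in all 4 groups, as it was in 910 of 13470 genes tested (6.76%). These 12 were Hmgcs1, Pmvk, Mvd, Fdps, Fdft1, Sqle, Lss, Cyp51, Msmo1, Nsdhl, Ebp and Dhcr7, and Stard4 was the only other member to do so. Abca1 and Ggps1 were higher in replicate 1 in all 4 groups, as were 1191 of 13470 genes tested (8.84%). In NC-7d the enzymes' median difference between libraries was 0.57 on the log2 scale, against a median size of difference of 0.21 over all genes tested, and Abca1 differed by -1.33 in the opposite direction. The labels give the replicate numbers no meaning beyond a count, and over all genes the libraries with the same number did not deviate together (Pearson r from -0.06 to 0.10 across 13470 genes). What the libraries with the same number had in common was not tested.

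**Figure D4:**
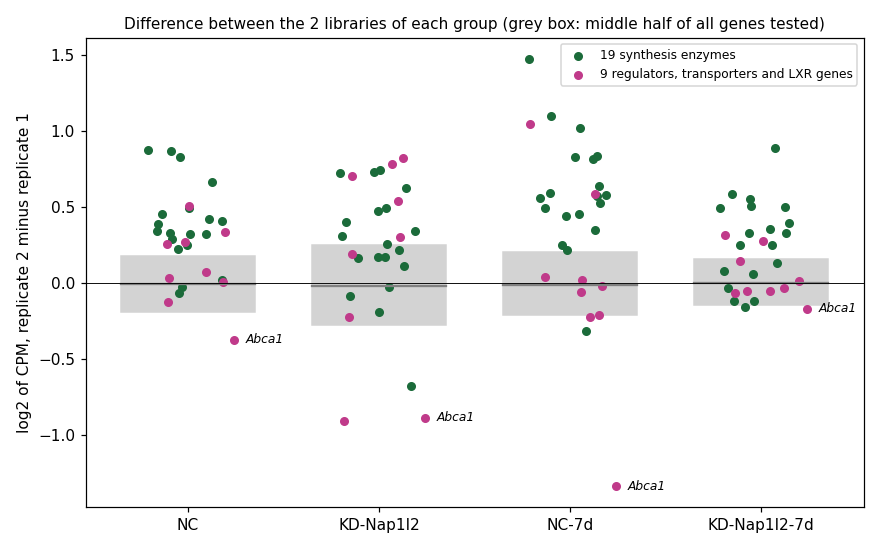
Difference between the 2 libraries of each group in log2 CPM (replicate 2 minus replicate 1) for the 19 enzymes (green) and the other 9 members (magenta), with the grey box for the middle 50% of all genes tested. Most enzymes lie above the box centre in every group, farthest in NC-7d, where their median is 0.57, and Abca1 lies below 0 in all 4 groups.

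**Figure D5:**
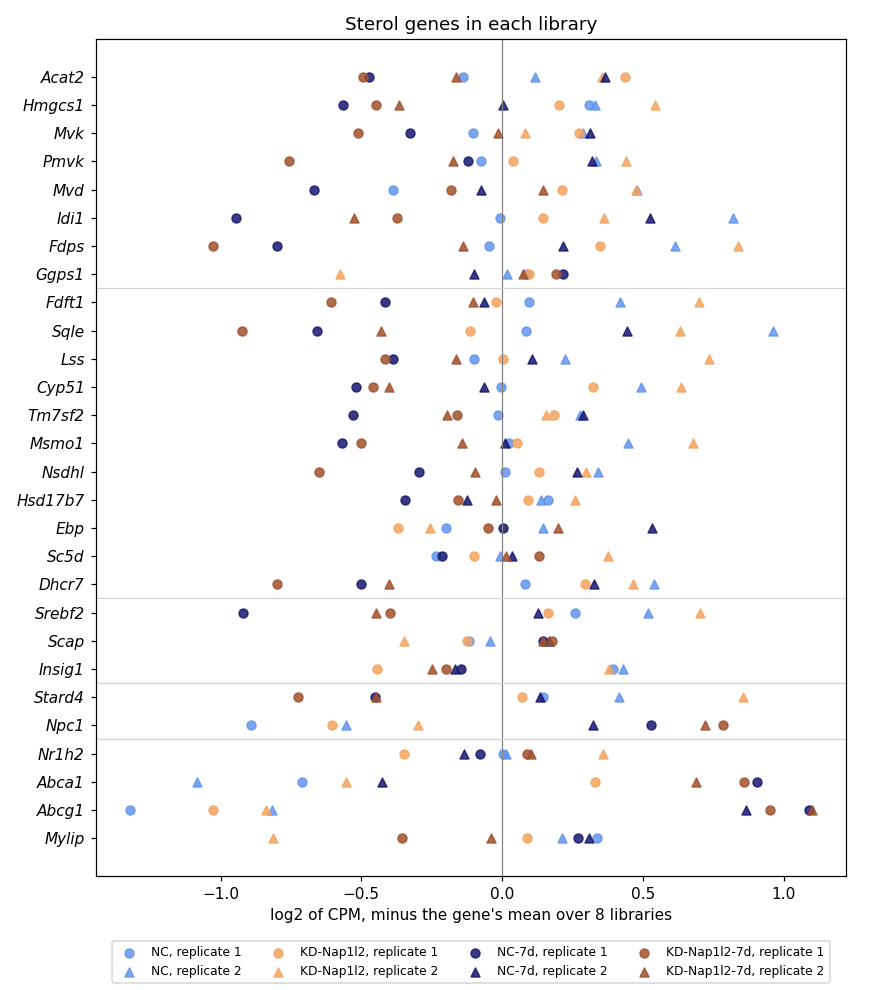
Level of each of the 28 genes in each library, as log2 CPM minus the gene's mean over the 8 libraries, with colours for groups and circles and triangles for replicates 1 and 2. Day 7 libraries (dark) lie mostly left for the enzymes, Srebf2 and Stard4 and right for Npc1, Abca1 and Abcg1, and NC-7d replicate 2 lies near the day 0 libraries for many enzymes.

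Other genes of sterol and lipid metabolism were counted in lists written from pathway knowledge, with earlier results of these data known. During induction, 4.83% of all genes tested rose and 3.38% fell in NC cells, and 6.84% rose and 7.36% fell in KD-Nap1l2 cells. Of 18 other genes of sterol synthesis and SREBP-2, 1 rose in NC cells (Stard5, log2 fold change 0.65, edgeR adjusted p = 0.024) and 1 fell in KD-Nap1l2 cells during induction. Of 14 genes of fatty acid synthesis, the SREBP-1 arm, 0 were called in NC cells and 3 fell in KD-Nap1l2 cells, namely the elongase Elovl6 (-0.80), the acyl-CoA synthetase Acsl3 (-0.49) and the acyltransferase Gpam (-0.49). Of 15 genes of SREBP processing and sterol-regulated degradation, 1 fell in KD-Nap1l2 cells, the ubiquitin ligase Rnf145 (-0.51), and of 15 genes that use isoprenoids 0 were called.
Of 23 other genes of sterol transport and storage, the phospholipid transfer protein gene Pltp fell in both lines (-1.21 in NC and -0.88 in KD-Nap1l2 cells). The caveolin gene Cav1 (-1.84) and the lysosomal acid lipase gene Lipa (-0.83) fell in KD-Nap1l2 cells. Cav1 was at 366 and 881 CPM in KD-Nap1l2 and 161 and 187 CPM in KD-Nap1l2-7d (edgeR adjusted p = 0.0435). It was at 511 and 239 CPM in NC and 144 and 241 CPM in NC-7d, where the groups overlapped. Of 11 oxysterol and other LXR genes, 1 was called, the cholesterol 25-hydroxylase gene Ch25h. Ch25h was at 17.9 and 19.8 CPM in NC, 19.6 and 11.2 CPM in KD-Nap1l2, 3.34 and 4.52 CPM in NC-7d and 2.91 and 3.15 CPM in KD-Nap1l2-7d. It fell in both lines (-2.25 in NC and -2.34 in KD-Nap1l2 cells, edgeR adjusted p = 0.00586 and 0.00383), with no day 7 library reaching a day 0 library. No gene of these 6 lists was called in either knockdown contrast or in the interaction.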

How the data were processed

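RNA-seq libraries of C3H10T1/2 cells (4 groups of 2) were analysed. The authors deposited estimated counts per gene and transcript, not normalized, with a fractional value in some library for 41.1% of genes. The other deposited values are read here as FPKM, which the authors scaled to the length of the gene and the size of the library, under column names that state no unit. The submitters' processing notes name BWA, Bowtie2, RSEM and GRCm38.p6, without versions, and Beijing Genomics Institute made the libraries. Tables of the authors' own comparisons (fold changes, p-values) were not used.

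Counts were rounded, TMM-normalized, filtered with filterByExpr (13470 of 18605 genes) and fitted over all 8 libraries with the quasi-likelihood test of edgeR 4.0.16 in R 4.3.3, with Benjamini-Hochberg adjustment. SE is the absolute log2 fold change over the root of F. The step was tested on simulated counts with the same dispersion for every gene and changes placed in KD-Nap1l2 only. That setting has no common shift between replicates, so it does not show how the test performs for these members. Alternatives were DESeq2 1.42.0, RLE factors, other count filters, limma 3.58.1 on log2(FPKM + 1) and log2(FPKM + 0.1), only the libraries compared, a replicate block and leaving out each library. A count of 0 allows up to 3 counts, and such limits cover counting error only. The members and all gene lists were chosen with earlier results of these data known. The genes named are the members, the 3 largest uncalled differences per contrast, and at most 6 called genes of the wider lists per contrast, whose counts include genes not reported here by name. Rnf145, Acsl3 and Gpam fall outside this rule and were named after their values were seen. Abca1, Npc1, Srebf2 and other members were described further in library values after these had been seen. Positions are RefSeq on GRCm38, and exon overlaps are from GENCODE on the same build.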

Additional observations from a re-analysis of the deposited data

How the results depend on the processing

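For induction in KD-Nap1l2 cells, 5 members were called, against 8 by DESeq2, 13 (2 higher, 11 lower) with the replicate block and 2 to 11 without 1 library: 11 without KD-Nap1l2 replicate 1, and 2 (Npc1 and Abcg1) without KD-Nap1l2 replicate 2, KD-Nap1l2-7d replicate 1 or KD-Nap1l2-7d replicate 2. Of all genes tested, 14.2% were called in the fit reported, 16.8% by DESeq2, 13.0% with the block, 15.9% without KD-Nap1l2 replicate 1, and 8.53%, 2.20% and 2.38% without KD-Nap1l2 replicate 2, KD-Nap1l2-7d replicate 1 and KD-Nap1l2-7d replicate 2. The genes called lower with the replicate block were Hmgcs1, Pmvk, Fdps, Fdft1, Sqle, Lss, Cyp51, Msmo1, Nsdhl, Dhcr7 and Stard4. What the libraries with the same replicate number had in common was not tested, and the block changed no other count of members called. For induction in NC cells, 2 members were called in the fit reported, 3 by DESeq2 and 3 with only the libraries compared. Of all genes tested, 8.21%, 10.97% and 5.72% were called in these fits. Leaving out NC replicate 1 or NC-7d replicate 2 changed the count of members, and the share of all genes called changed too. For KD-Nap1l2 against NC it ranged from 0 to 1, and for KD-Nap1l2-7d against NC-7d and the interaction it was 0 under every alternative run. Without 1 library, the members' median log2 fold change ranged from -0.071 to 0.29 for KD-Nap1l2 against NC (0.29 without NC replicate 2), from -0.40 to 0.09 for KD-Nap1l2-7d against NC-7d, from -0.49 to 0.02 for NC induction, from -0.67 to -0.34 for KD-Nap1l2 induction and from -0.47 to 0.057 for the interaction. Sqle at day 7 ranged from -1.10 (without NC-7d replicate 1) to 0.0022 (without NC-7d replicate 2). The cause was not tested. Alternatives for single genes were labelled only for the called members and the largest uncalled differences of each contrast. Of these alternatives, 249 kept direction and side of the threshold, 11 gained a call, 12 lost one and 1 reversed. Members outside this selection gained calls too. For induction in KD-Nap1l2 cells these included Pmvk, Fdft1, Lss, Msmo1 and Nsdhl with the replicate block. Acat2 and Srebf2 gained a call there with only the libraries compared. The fit of only the libraries compared was not run for the interaction, which uses all 8. With 2 libraries per group, the spread is estimated from few values.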
